A study of Mus musculus with 20 samples.

Results

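The 8 Myc lymphomas of the series, of 20 samples in all, are described here tumour by tumour. They were taken by their genotype label, VavPBcl2/Myc, and carry the titles s_AO57_1 to s_AO57_4, s_AO58_1, s_AO58_2, s_AO58_4 and s_AO58_5, by which each tumour is named below. The mice were of the C57BL/6 strain background. Every one of the 8 tumours carried the VavPBcl2 transgene, in which a promoter active across blood cells drives the survival gene Bcl2, together with transduced Myc. The other 12 samples, from normal spleen and from lymphomas with the empty vector, were not used. Cells were enriched from the tumour with magnetic beads against B220 (CD45R), a B cell surface marker, so other cells that carry B220 or bind the beads can remain. The labels do not say whether the 8 tumours came from separate mice or donors, or what the prefixes AO57 and AO58 stand for, so each p-value reflects how these 8 samples scatter and nothing wider. Ages are not given.

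Myc is a transcription factor that pairs with Max and binds the E-box, the DNA word CACGTG, at the promoters of many genes. It drives cells to grow and divide by raising ribosome assembly, nucleotide synthesis and metabolism, and in surplus it also prompts cell death. Bcl2 blocks that death at the mitochondrion, which is why the pair cooperates in B cell lymphoma, and the VavPBcl2 mouse is a model of germinal centre lymphoma.

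The reads counted in genes came to between 33.5 M and 45.7 M per tumour, and 14738 genes reached 1 CPM (reads per M reads counted in genes) in at least 2 of the 8. All levels are CPM after scaling with the trimmed mean of M-values, and spread is the standard deviation (SD) of log2 CPM over the tumours. One tumour, s_AO58_1, stood apart from the other 7. Its median Spearman correlation with them over genes was 0.821, against 0.945 to 0.959 for each of the others with its own 7 partners, and ribosomal protein genes took 22.1% of its gene counts against 6.16 to 8.35% elsewhere. Reads aligned to several places made up 40.3% of its reads, against 22.2 to 35.2% in the rest. It was highest of the 8 by at least 1 log2 unit over the median of the others in 3293 genes and lowest by as much in 3572, where the other tumours had 365 to 544 and 134 to 917. Results that rest on it are therefore given with and without it.

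The shift in s_AO58_1 ran with transcript length. Among 1869 genes whose longest annotated transcript is under 1000 bases its level was a median 1.63 log2 units above the median of the other 7, and 71.4% of these genes were highest there. Among 686 genes over 8000 bases it was a median -1.81 log2 units from them, and 78.7% were lowest there. Across 14173 genes with a length the Spearman correlation of its deviation with length was -0.64, while the other tumours lay between -0.31 (s_AO58_4) and 0.27 (s_AO58_2). Rps28, a ribosomal protein gene of 1443 bases, was at 199 to 718 CPM in 7 tumours, s_AO57_2 being the highest of these, and at 2157 CPM in s_AO58_1. Mga, whose product pairs with Max and whose transcript has 13931 bases, was at 13.9 CPM in s_AO58_1 and at 69.5 to 135 CPM in the other 7. In neither gene did the value of s_AO58_1 fall in the range of the others. RNA integrity values are not given, and a part for RNA quality in this pattern was not tested.

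**Figure D1:**
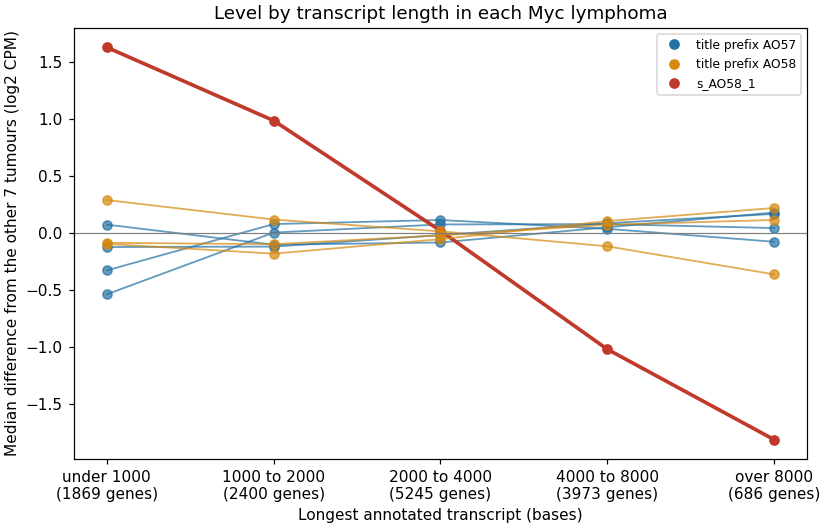
Median difference of each tumour from the median of the other 7 (log2 CPM, vertical axis) in 5 classes of transcript length in bases (horizontal axis), 1 line per tumour. The red line, s_AO58_1, runs from 1.63 for genes under 1000 bases to -1.81 for genes over 8000, while the other 7 lines lie between -0.54 and 0.29.

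Myc itself, the transduced gene, was expressed in all 8 tumours. Its levels were 937 CPM in s_AO57_1, 799 in s_AO57_2, 769 in s_AO57_3, 693 in s_AO57_4, 312 in s_AO58_1, 1569 in s_AO58_2, 1129 in s_AO58_4 and 1288 in s_AO58_5, a mean of 937 ± 388 CPM (SD, n = 8). The counts do not separate the transduced copy from the mouse gene. The lowest value belonged to s_AO58_1, and without it each AO58 tumour was above each AO57 tumour. Over all 8 tumours the 2 prefixes differed by 0.21 log2 units (exact two-sided permutation p = 0.77, 4 against 4). Without s_AO58_1 the difference was 0.73 log2 units (exact permutation p = 0.057, 4 against 3, the smallest two-sided p that this design allows). Bcl2, the gene that the transgene carries, ranged from 73.0 CPM in s_AO57_4 to 212 CPM in s_AO58_1, with a median of 105 CPM. How much of this came from the transgene cannot be told from the counts. Max, the partner of Myc, varied least of these 3, from 85.8 CPM in s_AO57_1 to 120 CPM in s_AO58_4.

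**Figure D2:**
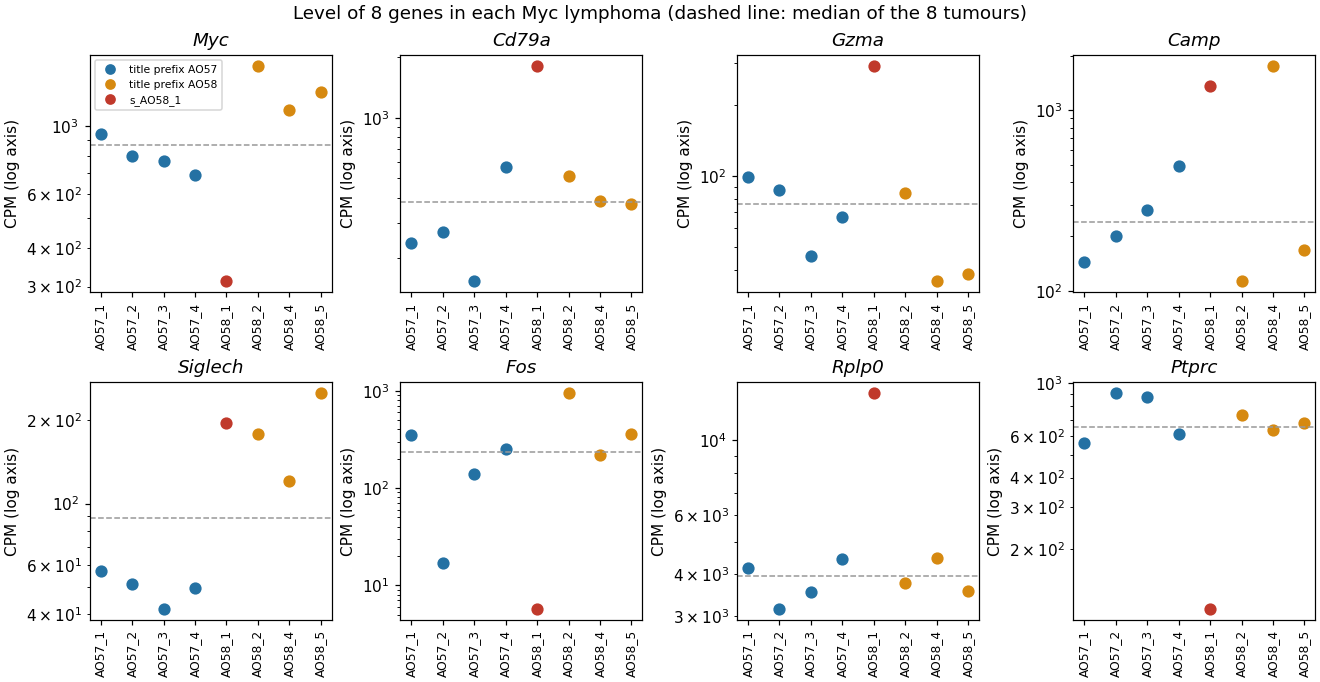
Level of Myc, Cd79a, Gzma, Camp, Siglech, Fos, Rplp0 and Ptprc (CPM, log axis) in each of the 8 Myc lymphomas, 1 point per tumour, with the median as a dashed line. The red point, s_AO58_1, is lowest for Myc, Fos and Ptprc and highest for Cd79a, Gzma and Rplp0, and Camp is high in s_AO58_1 and s_AO58_4.

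An SD of at least 1 log2 unit was reached by 2481 of 14738 genes (16.8%) over the 8 tumours and by 1418 of the same genes (9.62%) without s_AO58_1, and the median SD went from 0.60 to 0.40. Of the 2481 genes, 1278 had their largest deviation in s_AO58_1. The 15 genes with the largest SD were taken from those with at least 5 CPM in at least 2 tumours, leaving out immunoglobulin, T cell receptor and sex-linked genes. Over 8 tumours, 13 of the 15 deviated most in s_AO58_1, where they were at or near 0 except for Fos. 9930111J21Rik1 led them with 11.97 to 25.2 CPM in 7 tumours and no count in s_AO58_1. Lmbrd2, a membrane protein gene, had 4.50 to 8.25 CPM in 7 tumours and again no count in s_AO58_1. Kcna3, a potassium channel of lymphocytes, stood at 10.1 to 23.6 CPM against 0.13 CPM there. These genes were close to level among the other 7 tumours, with SDs of 0.38, 0.31 and 0.49.

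Without s_AO58_1 the list was led by other genes. Fosb, a subunit of the AP-1 transcription factor, had the largest SD (2.31), with 509 CPM in s_AO58_2, 110 in s_AO58_5, 106 in s_AO57_1, 67.9 in s_AO57_4, 30.6 in s_AO57_3, 20.1 in s_AO58_4 and 3.05 in s_AO57_2. The next 3 were small non-coding RNAs, n-R5s193 (a 5S ribosomal RNA), Gm24245 and Rn7s6, all highest in s_AO58_2 at 127, 67.1 and 57.3 CPM. Duxbl1, a double-homeobox gene, came next and lay between 0.145 CPM in s_AO57_4 and 12.6 CPM in s_AO58_5. Alox15, a lipoxygenase found in eosinophils and macrophages, was at 86.9 CPM in s_AO58_2 and at 1.40 to 20.4 CPM in the other 6. Mogat2 and Nkain1 were both highest in s_AO58_4, at 29.8 and 21.8 CPM, and they went with the neutrophil genes described below.

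Pan-B genes were expressed in all 8 tumours, at unequal levels. All 18 pan-B genes of the list passed the filter, and their summed level ran from 1587 CPM in s_AO57_3 to 8263 CPM in s_AO58_1, or to 4605 CPM (s_AO58_2) without that tumour. Of these 18, 2 had an SD of at least 1 with all 8 tumours and none without s_AO58_1, against 16.8% and 9.62% of all genes. Those 2 encode the signalling pair of the B cell receptor. Cd79a had 238, 269.97, 153, 566, 1814, 513, 384 and 374 CPM in the order of titles, and Cd79b had 330.2, 378, 183, 612, 2395, 720.2, 444 and 427 CPM. Both were highest in s_AO58_1 and lowest in s_AO57_3. Ptprc, the gene that encodes B220, was at 558 to 907 CPM in 7 tumours and at 112 CPM in s_AO58_1, the lowest of all, and its transcript of 5740 bases falls in a length class that was low there.

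Genes of antigen presentation were, like the pan-B genes, lowest in s_AO57_3 and highest in s_AO58_1. The 10 MHC class II genes summed to 3671 CPM in s_AO57_3, 5395 and 5401 CPM in s_AO57_1 and s_AO57_2, 8862 to 11788 CPM in s_AO57_4 and the AO58 tumours other than s_AO58_1, and 23249 CPM in s_AO58_1, where 9 of the 10 were highest. H2-Aa, a class II chain, had a median of 1636 CPM and was lowest, at 710.2 CPM, in s_AO57_3. None of the 10 had an SD of 1 or more in either set of tumours. In bulk RNA, fewer cells of a type and less RNA per cell cannot be told apart, here and in what follows. Genes of 1000 to 2000 bases were a median 0.99 log2 units above the other 7 in s_AO58_1, and 63.2% were highest there. The median transcript was 1576 bases for MHC class II, 1465.5 for NK and cytotoxic, 1627.5 for plasmacytoid dendritic cell, 1097.5 for neutrophil and 1788 for erythroid genes. The part of length in the levels of these lists in s_AO58_1 was not tested.

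An SD of at least 1 was reached by 6 of 11 germinal centre genes (10 passed the filter), 3 of 10 plasma cell genes (all passed) and 5 of 15 early B cell genes (11 passed), against 16.8% of all genes. Without s_AO58_1 it was reached by 4, 3 and 2 of them, against 9.62%. Germinal centre genes summed to 249 CPM in s_AO57_4, 83.5 to 131 CPM in 6 others and 61.9 CPM in s_AO58_1. Gcsam, a germinal centre signalling adaptor, reached 18.7 CPM in s_AO57_4 against a median of 3.91 CPM, and Bcl6, the master regulator of that stage, reached 90.01 CPM there against a median of 42.6 CPM. Mef2b, another gene of that list, had no count in any of the 8 tumours. Plasma cell genes summed to 3276, 4160 and 4508 CPM in s_AO57_1, s_AO57_2 and s_AO57_4 and to 976 to 2287 CPM in the other 5. Jchain, which joins secreted antibody, had 1905 to 3029 CPM in those 3 tumours and 452 to 1317 CPM in the rest. It is itself on that list and made up 452 of the 976 CPM in s_AO58_4, so it is no separate evidence of the split. Early B cell genes did not follow that split. Rag1, a recombinase subunit, was at 44.6 CPM in s_AO58_2 and 3.96 to 21.3 CPM elsewhere. Il7r, a receptor shared by early B cells and T cells, ran from 6.47 CPM in s_AO58_1 to 261 CPM in s_AO57_2.

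Among the 23 heavy chain and 53 kappa V genes counted, none took most of a tumour's counts for its chain. Ighv3-6 was the largest of 23 heavy chain V genes with a name in the table in all 8 tumours, from 14.9% of their counts in s_AO58_4 (95% Wilson interval 14.1 to 15.7%) to 39.9% in s_AO57_4 (39.4 to 40.3%). Among 53 kappa V genes Igkv5-39 was largest in 6 tumours, Igkv15-103 in s_AO57_1 with 24.4% (24.2 to 24.6%) and Igkv4-74 in s_AO58_2 with 17.8% (17.5 to 18.1%). Of the 3 lambda V genes, Iglv1 took most counts in all 8 tumours, from 70.1% in s_AO58_4 (69.2 to 70.9%) to 86.8% in s_AO57_1 (86.5 to 87.1%). These intervals cover counting error only, and V genes share sequence, so reads can be assigned to a near copy. V genes without a name and reads aligned to several places were not counted, so these shares cannot show whether a tumour was clonal. Ighm, the IgM constant gene, was at 3550 to 12007 CPM in all tumours. Ighg1, an IgG constant gene, ranged far more widely, from 81.0 CPM in s_AO58_1 to 12030 CPM in s_AO57_1, and was above Ighm in s_AO57_1 only. The 3 tumours with the highest plasma cell sums, s_AO57_1, s_AO57_2 and s_AO57_4, also held the 3 highest Ighg1 levels.

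Genes of other blood cells also varied. Neutrophil genes had an SD of at least 1 in 13 of 16, with s_AO58_1 and without it, against 16.8% and 9.62% of all genes. Their summed level was 1780 CPM in s_AO58_2, 1996 in s_AO58_5, 2895 in s_AO57_1, 4240 in s_AO57_3, 4628 in s_AO57_2, 7928 in s_AO57_4, 17479 in s_AO58_4 and 17842 in s_AO58_1, and no listed gene was at 0 in all 8. Camp, a granule antimicrobial peptide, had 144, 202, 281, 491, 1364, 113, 1764 and 167 CPM in the order of titles. Ngp, another granule protein gene, reached 5366 CPM in s_AO58_4 against a median of 1063 CPM. Ltf, lactoferrin of the same granules, separated the pair of high tumours, with 1872 CPM in s_AO58_4 and 435 CPM in s_AO58_1. S100a9, a short gene of mature neutrophils, had the reverse order, 7062 CPM in s_AO58_1 and 4100 CPM in s_AO58_4.

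The 5 genes most like Camp over 8 tumours, by Pearson r of log2 CPM among genes with at least 5 CPM in the highest tumour, were Agpat2, Mapk13, Pilra, Pglyrp1 and Wfdc21 (r of 0.974 to 0.984). Without s_AO58_1 they were Ltf, S100a9, Scnn1a, Itgb2l and Dgat2 (r of 0.989 to 0.996). Pglyrp1, a neutrophil protein that binds bacterial cell wall, went from 44.8 CPM in s_AO58_5 to 379 CPM in s_AO58_4.

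Basophil, mast cell and eosinophil genes reached an SD of 1 in 9 of 10, with s_AO58_1 and without it, against 16.8% and 9.62% of all genes, and fell into separate patterns. Prg2, the eosinophil major basic protein, and Ear1, an eosinophil ribonuclease, were high in s_AO58_1 (430.2 and 46.9 CPM), s_AO58_2 (322 and 31.5 CPM) and s_AO58_5 (221 and 13.4 CPM), and lowest in s_AO57_4 (26.5 and 1.91 CPM). Mcpt8, a basophil protease, was highest in s_AO58_1 (24.8 CPM) and s_AO57_4 (15.7 CPM) and lowest in s_AO58_5 (1.01 CPM). Cpa3, a mast cell and basophil protease, was highest in s_AO57_4 (7.71 CPM) and lowest in s_AO58_5 (0.43 CPM). Fcer1a, the IgE receptor chain, was at 2.78 CPM in s_AO57_4 and had no count in s_AO58_5. The summed level of the list ran from 102 CPM in s_AO57_2 to 430 CPM in s_AO58_2 and 548 CPM in s_AO58_1.

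Red cell genes were abundant and uneven. The 13 erythroid genes summed to 7324 CPM in s_AO57_1 and 7711 in s_AO57_2, 47618 CPM in s_AO58_5 and 87178 CPM in s_AO58_1. Hba-a1, an alpha globin, followed them from 1137 CPM in s_AO57_1 to 39894 CPM in s_AO58_1, with 16328 CPM in s_AO58_5. Alas2, the first enzyme of red cell heme synthesis, went from 165 CPM in s_AO57_2 to 1679 CPM in s_AO58_1. The erythroid list had 6 of 13 genes with an SD of at least 1, and 5 without s_AO58_1, against 16.8% and 9.62% of all genes.

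The sums of lymphoid, dendritic and macrophage lists spanned narrower ranges than the neutrophil and erythroid sums. Gzma, a granzyme of NK and cytotoxic T cells, had 98.7, 87.1, 46.0, 66.7, 292, 84.8, 35.7 and 38.3 CPM in the order of titles, with s_AO58_1 highest. Its list of 10 NK and cytotoxic genes summed to 353 CPM in s_AO58_5, 1202 CPM in s_AO57_3 and 1780 CPM in s_AO58_1. T cell genes summed to 1864 and 1889 CPM in s_AO57_2 and s_AO57_3 and to 895 to 1406 CPM in the other 6, and Cd3e, a T cell receptor subunit, ran from 18.8 CPM in s_AO58_5 to 107 CPM in s_AO57_3. The tumour with the lowest pan-B sum, s_AO57_3, held the highest T cell sum, but the other tumours did not keep to that pattern. The next lowest pan-B sum, 2154 CPM in s_AO57_1, went with the lowest T cell sum, 895 CPM. In s_AO57_2, with a T cell sum of 1864 CPM, the pan-B sum was 2857 CPM. The part of T cells in the pan-B levels was not tested. Plasmacytoid dendritic cells also carry B220. The 8 genes listed for them summed to 381 to 854 CPM in the AO57 tumours and 1026 to 1663 CPM in s_AO58_4, s_AO58_2 and s_AO58_5. In s_AO58_1 they summed to 2705 CPM, and the sums of the prefixes did not overlap. Among single genes, 3.43% were higher in every AO58 tumour than in any AO57 tumour. Siglech, a receptor of plasmacytoid dendritic cells, had 57.1, 51.3, 41.9 and 49.6 CPM in the AO57 tumours and 194, 178, 121 and 249 CPM in the AO58 tumours. In s_AO58_1, Klk1 and Cox6a2 of the same list were at 284 and 31.9 CPM. Most of the 2705 CPM there thus came from Bst2, Ccr9, Tcf4, Ly6d and Irf8, and which cells expressed those genes was not tested. C1qa, a complement gene of macrophages, was at 15.8 to 40.5 CPM in 7 tumours and 104 CPM in s_AO58_1.

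Epithelial keratins appeared in 2 tumours. These genes were in no list and were singled out after their values were seen. Krt5, a keratin of basal epithelium, was at 27.4 CPM in s_AO58_4 and 4.35 CPM in s_AO57_3, and at 0.12 CPM or less in the other 6. Krt14, its partner, was at 11.8 and 3.83 CPM in the same tumours and at 0.19 CPM or less elsewhere. Trp63, the regulator of that tissue, reached 1.68 and 1.22 CPM, with 0.14 CPM at most in the others.

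**Figure D3:**
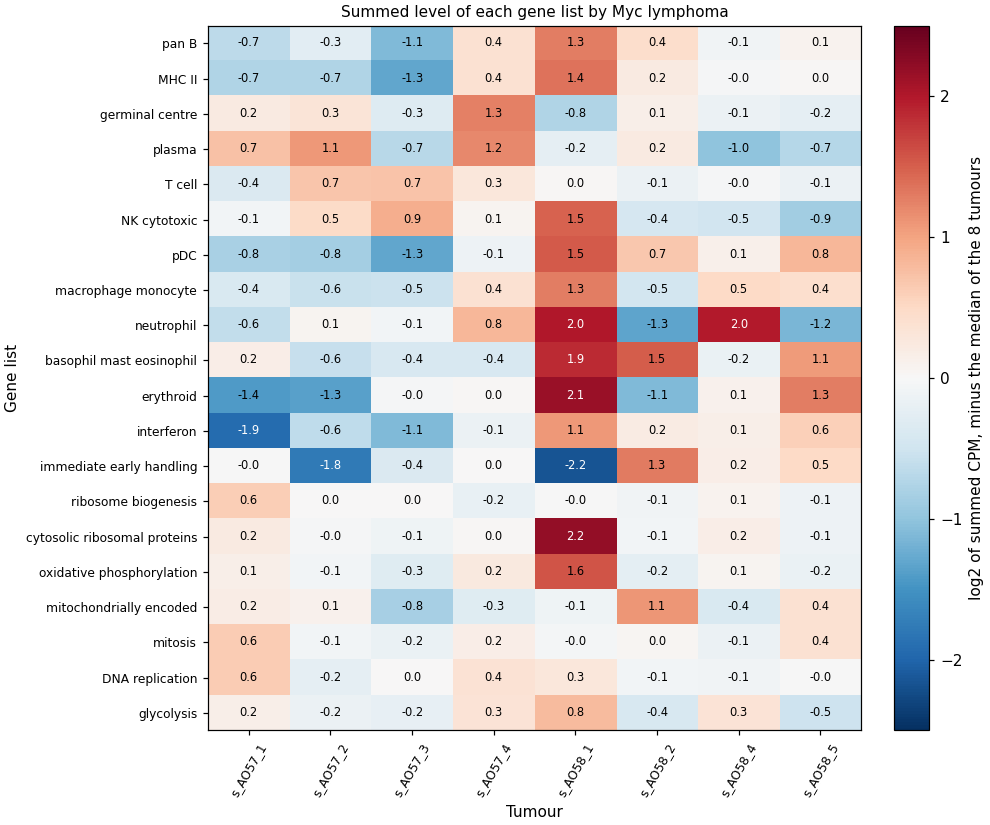
Summed level of 20 gene lists (rows) in the 8 Myc lymphomas (columns), as log2 of the summed CPM minus the median of the 8 tumours, red for above and blue for below. Neutrophil genes stand out in s_AO58_1 and s_AO58_4, red cell genes in s_AO58_1 and s_AO58_5, and the interferon list is lowest in s_AO57_1.

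Single genes of several growth programmes that Myc drives stayed under an SD of 1, although the sums of their lists differed between tumours. No gene had an SD of 1 or more, with or without s_AO58_1, among 22 ribosome biogenesis genes, 20 mitosis genes, 18 DNA replication genes, 13 glycolysis genes and 21 nucleotide and 1-carbon genes, against 16.8% and 9.62% of all genes. Mitosis genes summed to 1917 to 3335 CPM and DNA replication genes to 1614 to 2935 CPM, both highest in s_AO57_1. Glycolysis genes summed to 2548.8 CPM in s_AO58_5, the lowest, and to 6338.5 CPM in s_AO58_1, the highest. Ribosome biogenesis genes summed to 6109 CPM in s_AO57_1 and to 3469 to 4215 CPM in the other 7. Ncl, nucleolin, followed that list, with 1490 CPM in s_AO57_1 and 499 CPM in s_AO57_4, a tumour in which Myc was the lowest apart from s_AO58_1. Mki67, a marker of cycling cells with a transcript of 10061 bases, ran from 263 CPM in s_AO58_1 to 1296 CPM in s_AO57_1. Ribosomal protein and respiratory chain genes, which are short, were even among 7 tumours and high in the eighth. The 25 ribosomal protein genes had a median SD of 0.91 with s_AO58_1 and 0.29 without it, and all 25 were highest there. Of 15 nuclear genes of oxidative phosphorylation, 14 were highest in s_AO58_1. The 13 mitochondrially encoded genes behaved differently, with their highest sum in s_AO58_2 (218860 CPM) and their lowest in s_AO57_3 (57810 CPM).

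Immediate-early genes, which cells switch on within minutes of a stimulus or of tissue handling, were uneven. Of 14 such genes, 10 had an SD of at least 1 over 8 tumours and 6 without s_AO58_1, against 16.8% and 9.62% of all genes. Their summed level was 302 CPM in s_AO58_1, 399.6 in s_AO57_2, 1060 in s_AO57_3, 1342 in s_AO57_1, 1368 in s_AO57_4, 1529 in s_AO58_4, 1905 in s_AO58_5 and 3350 in s_AO58_2. Fos, a subunit of AP-1, had 353, 16.9, 139.8, 253, 5.74, 945, 219 and 361 CPM in the order of titles. Jun, its partner, was at 7.46 CPM in s_AO58_1 and 33.4 CPM in s_AO57_2 against 378 CPM in s_AO58_2. The 2 tumours at the bottom of this list were s_AO58_1 and s_AO57_2, whose deviations had Spearman correlations of -0.64 and 0.07 with transcript length. Time from dissection to lysis is not given in the labels, and its part and that of length in these levels were not tested.

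Dusp1, a phosphatase that the same stimuli induce, went with Fos: 129, 18.8, 102, 92.6, 15.04, 348, 91.5 and 124 CPM in the order of titles. Its promoter is printed because it was the only one of the 11 list members matched in the RefSeq promoter table (GRCm38.p6, 250 bases before to 50 after each start) that held the cyclic AMP response element TGACGTCA, searched on both strands. The stretch lies at chr17:26508556-26508675 on the minus strand, 203 to 84 bases before the start site, and capitals mark TGACGTCA and, after it, an E-box.
Dusp1: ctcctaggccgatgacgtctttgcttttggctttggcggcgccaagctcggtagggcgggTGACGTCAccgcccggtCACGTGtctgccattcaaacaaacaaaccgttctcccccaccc
Of 9879 tested genes with a promoter in the table, 350 (3.54%) held TGACGTCA. The CArG box, the site of serum response factor, was found in 2 of the 11 members (Egr2 and Zfp36) and in 1.56% of all. These are matches of letters only.

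Interferon-response genes formed another axis. An SD of at least 1 was reached by 8 of 12 such genes over 8 tumours and 9 of 12 without s_AO58_1, against 16.8% and 9.62% of all genes. Their sum was 236 CPM in s_AO57_1, 418 to 818 CPM in the other AO57 tumours, 991 to 1364 CPM in s_AO58_4, s_AO58_2 and s_AO58_5 and 1901 CPM in s_AO58_1. The sums of the prefixes thus did not overlap, where 3.43% of single genes were higher in every AO58 tumour than in any AO57 tumour. Irf7, an interferon regulatory factor that plasmacytoid dendritic cells hold at high level, had 26.2, 55.3, 44.1, 106, 508, 222, 162 and 169.8 CPM in the order of titles. Oas2, an antiviral RNA sensor, ran from 6.94 CPM in s_AO57_1 to 86.5 CPM in s_AO58_2, and Isg15, an interferon-induced ubiquitin-like protein, from 22.2 CPM in s_AO57_1 to 610.4 CPM in s_AO58_1. The sum of the plasmacytoid dendritic cell list moved with these genes and was likewise higher in every AO58 tumour. It includes Bst2, Tcf4 and Irf8 besides Siglech, and the part of plasmacytoid dendritic cells in the interferon levels was not tested.

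Groups of genes that vary together were taken from the 1000 genes with the largest SD, by average linkage with a mean Pearson r of at least 0.6 and at least 20 genes per group. Over 8 tumours there were 11 groups, and the largest reflected s_AO58_1. Group 1 held 273 genes with a median transcript of 5040 bases, led by Pdpr, Ap4e1 and Rapgef2, which averaged -3.53 log2 units in s_AO58_1 relative to their mean over the tumours. Group 2 held 98 genes with a median transcript of 414.5 bases, led by the ribosomal protein pseudogene Rpl23a-ps1, which averaged 2.42 in s_AO58_1 and -2.41 in s_AO57_1. In s_AO57_1 only 0.99% of the reads were listed as not aligned, against 11.1 to 16.4% in the others, and a part for alignment in its level of these genes was not tested. Group 7 held 43 genes, with the neutrophil genes Ngp, Lcn2 and Camp among its leaders, and averaged 2.24 in s_AO58_4 and 1.09 in s_AO58_1.

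Without s_AO58_1 there were 15 groups, and several had recognisable members. Group 2, of 120 genes, held the plasma cell genes Derl3 and Jchain, the germinal centre genes Rgs13 and Gcsam, 5 basophil and mast cell genes (Mcpt8, Prss34, Cpa3, Fcer1a and Ms4a2) and 3 early granule genes (Elane, Mpo and Ctsg). It averaged 1.31 log2 units in s_AO57_1, 1.31 in s_AO57_2 and 1.22 in s_AO57_4, and -0.30 to -1.47 in the other 4. Group 3, of 98 genes, held 8 of the 16 neutrophil genes, led by Ltf, and averaged 2.34 in s_AO58_4 and 0.94 in s_AO57_4. Neutrophil genes of early and of late granules thus fell into different groups. Group 5, of 73 genes, held the eosinophil ribonucleases Ear1 and Ear6 together with Klk1 and averaged 2.403 in s_AO58_2. Group 6, of 59 genes, held 5 of the 12 interferon genes and Cox6a2, a gene of plasmacytoid dendritic cells, and averaged 1.37 in s_AO58_5, 1.21 in s_AO58_2 and -1.82 in s_AO57_1. Group 11, of 33 genes, held Fos, Fosb, Atf3 and Dusp1 and averaged -2.39 in s_AO57_2. Group 14, of 24 genes, held the keratins and averaged 3.45 in s_AO58_4 and 1.99 in s_AO57_3.

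**Figure D4:**
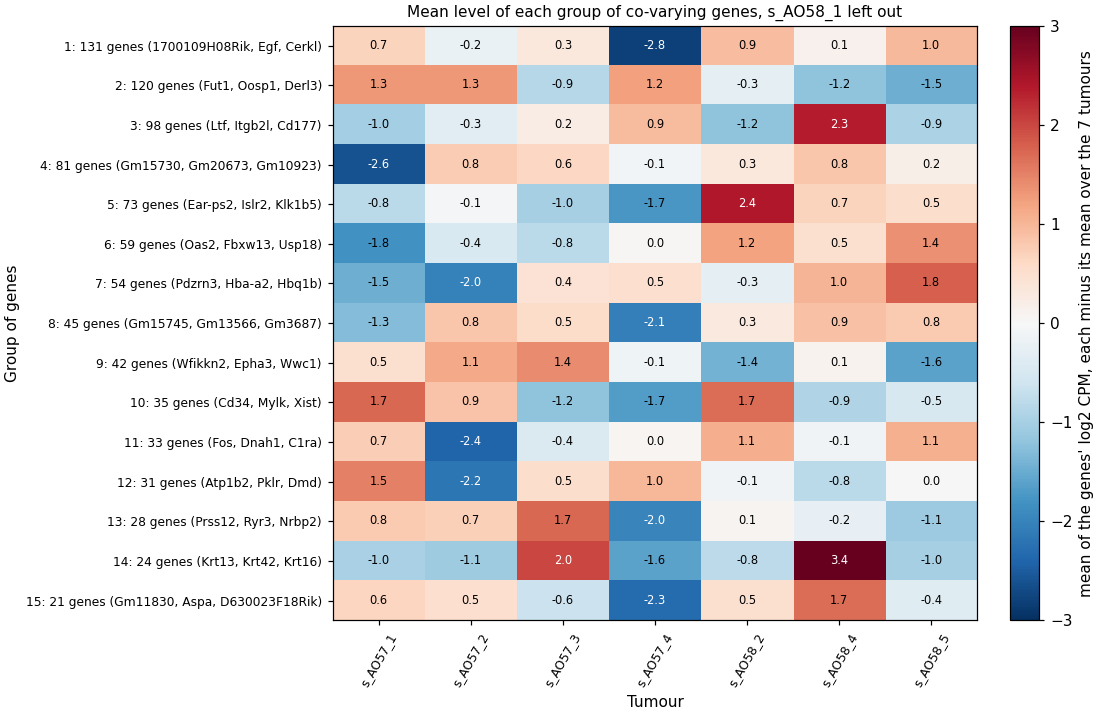
Mean level of the 15 groups of co-varying genes (rows, with their size and first 3 leading genes) in the 7 Myc lymphomas other than s_AO58_1 (columns), as the mean over genes of log2 CPM minus each gene's mean. Group 3, with Ltf, is highest in s_AO58_4 (2.34) and group 11, with Fos, lowest in s_AO57_2 (-2.39).

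Sex-linked genes were a separate source of spread. Xist, the RNA that coats the inactive X chromosome, was at 1232, 1322 and 1289 CPM in s_AO57_1, s_AO57_2 and s_AO58_2 and at 2.96 to 27.2 CPM in the other 5. Eif2s3y, a Y-linked gene, had no count in those 3 tumours and 36.9 to 57.8 CPM in the other 5. Both prefixes held tumours of each kind. The Y-linked genes fell into the group without s_AO58_1 that also held the alpha globins Hba-a1 and Hba-a2.

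The question whether the tumours vary with their Myc level was put to each gene as a slope on log2 Myc CPM (edgeR quasi-likelihood test, Benjamini-Hochberg adjusted over 14737 genes). Over 8 tumours 235 genes (1.59%) were called higher and 812 (5.51%) called lower with more Myc at an adjusted p under 0.05. Without s_AO58_1, the tumour with the lowest Myc, edgeR called none, with 1118 genes at an unadjusted p under 0.05, and DESeq2 called 197. The median transcript length was 5800 bases for the genes called higher and 1176 bases for those called lower, against 3034 bases for all genes, which is the direction of the length shift of s_AO58_1. With the length trend of each tumour removed, 20 genes were called higher and 132 lower. Leaving out s_AO57_1, s_AO58_2 or s_AO58_5 in turn also left no gene called in edgeR, although 4538, 4344 and 4067 genes had an unadjusted p under 0.05.

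Pmaip1, which encodes Noxa, a BH3-only protein that promotes cell death, had the smallest p among the genes called higher. Its levels were 32.6, 21.6, 28.8, 24.7, 3.34, 94.1, 36.8 and 88.9 CPM in the order of titles, lowest where Myc was lowest and highest where Myc was highest. The slope was 2.05 ± 0.22 (SE) log2 units per log2 unit of Myc (edgeR adjusted p = 0.034), and 1.84 ± 0.30 without s_AO58_1 (edgeR adjusted p = 0.16), no longer called. It was the only one of 14 genes of the p53 and Arf list called higher, and Bax, a pore-forming death protein, was the only one called lower (slope -0.79 ± 0.20, edgeR adjusted p = 0.046). Without s_AO58_1 the slope of Bax was 0.03 ± 0.30 (edgeR adjusted p = 0.99), so its call rested on that tumour. Lifr, a cytokine receptor gene of 9655 bases, had a slope of 1.46 ± 0.22 (edgeR adjusted p = 0.037), and 1.38 ± 0.33 without s_AO58_1 (edgeR adjusted p = 0.32). Naip6, Zc3h12c, Map3k19, Arrdc3, Gm11407 and Il6ra were the other genes with the smallest p among those called higher, with slopes of 1.15 to 2.4, and of 0.82 to 2.4 without s_AO58_1. At the other end stood Elob (a subunit of Elongin, slope -1.16), mt-Tc, Usmg5, Pop5, Pycard, Klrg1, Tmem160 and Uqcr11, of which Uqcr11, a subunit of respiratory complex III, was at 240 CPM in s_AO58_1 and 43.8 to 76.5 CPM elsewhere. Their slopes lay between -2.52 and -0.97, and between -1.64 and -0.50 without s_AO58_1.

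By list, the genes called lower with Myc were 19 of 25 ribosomal protein genes and 12 of 15 oxidative phosphorylation genes, where 5.51% of all genes were called lower. The median slope of the ribosomal protein genes was -1.04 over 8 tumours and 0.02 without s_AO58_1, and that of the oxidative phosphorylation genes was -0.88 and -0.24. Of the immediate-early list 6 of 14 were called higher, where 1.59% of all genes were, and the median slope of that list was 1.15, or 0.90 without s_AO58_1. Among 22 ribosome biogenesis genes 2 were called lower and none higher, with a median slope of -0.02, or -0.12 without s_AO58_1. No mitosis, DNA replication, glycolysis, pan-B or neutrophil gene was called in either direction in edgeR.

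Il6ra, the receptor for interleukin 6, was the only one of the 10 genes, among these 16, matched in the RefSeq promoter table that held the Myc binding word CACGTG. It had 8.70 CPM in s_AO58_1, a median of 35.5 CPM and 58.4 CPM in s_AO58_5. The E-box begins 24 bases before the start site and is in capitals in the stretch at chr3:89913197-89913280 on the minus strand (GRCm38.p6). Siglech, the plasmacytoid dendritic cell gene, is shown beside it, since it also held 1 and is described again below. Its stretch is chr7:55768068-55768177 on the plus strand. Lrp3, Egr2 and Dusp1 also held the word.
Il6ra: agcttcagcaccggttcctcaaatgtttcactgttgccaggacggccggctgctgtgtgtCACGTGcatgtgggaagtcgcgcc
Siglech: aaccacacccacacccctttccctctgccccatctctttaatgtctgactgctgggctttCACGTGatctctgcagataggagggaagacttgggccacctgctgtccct
CACGTG, a palindrome and so the same on both strands, was in 27 of 171 promoter-matched genes called higher with Myc (15.8%), in 70 of 579 called lower (12.1%) and in 1168 of 9879 tested (11.8%). A match is a run of letters in this window, and no binding was measured.

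**Figure D5:**
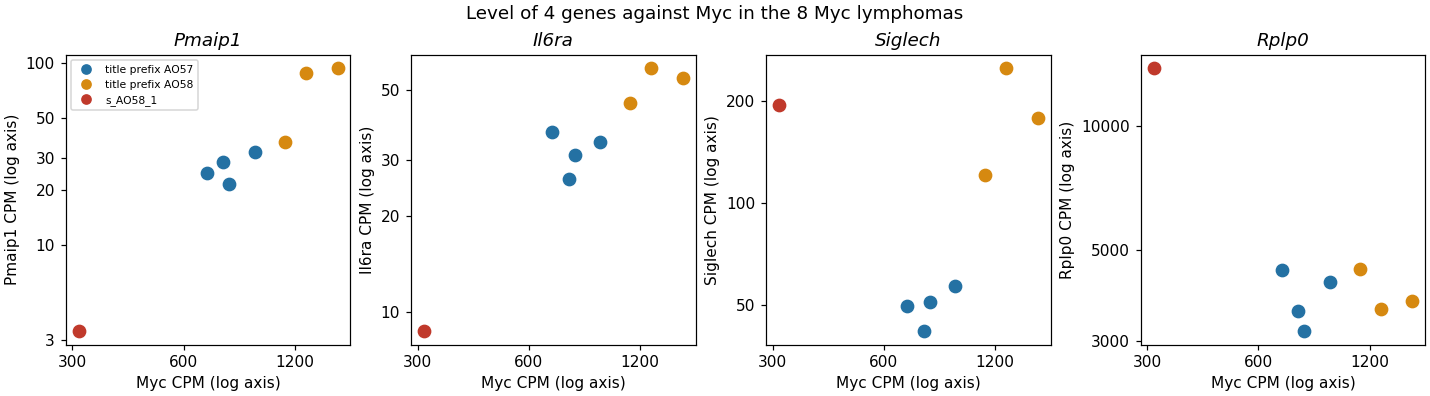
Level of Pmaip1, Il6ra, Siglech and Rplp0 (CPM, log axis) against Myc (CPM, log axis) in the 8 Myc lymphomas, 1 point per tumour. Pmaip1 goes with Myc from 3.34 to 94.1 CPM, whereas Siglech is higher with more Myc in 7 tumours but high at the lowest Myc level in s_AO58_1, in red, and Rplp0 is high in s_AO58_1 only.

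Myc was also set against 17 marker genes chosen for cell identity, proliferation and ribosome content, with exact permutation p-values adjusted over the 17. None passed an adjusted p of 0.05 over 8 tumours, over 7, or without s_AO58_1 and s_AO58_2, the 2 tumours farthest from the median Myc level. Siglech had the largest r without s_AO58_1. Its Pearson r was 0.14 over 8 tumours (Spearman rho 0.43, exact permutation p = 0.78) and 0.91 without s_AO58_1 (rho 0.93, exact p = 0.0077, adjusted p = 0.13), and 0.93 over the remaining 6 (exact p = 0.0056, adjusted p = 0.094). Gzma had r = -0.72 over 8 tumours (rho -0.43, exact p = 0.055, adjusted p = 0.27) and -0.14 without s_AO58_1 (exact p = 0.76). Camp had r = -0.56 (rho -0.60, exact p = 0.15) and -0.24 (exact p = 0.61). C1qa changed sign, from -0.56 (rho -0.05, exact p = 0.16) to 0.55 (exact p = 0.21, adjusted p = 0.72), and was at 0.78 over the remaining 6 (exact p = 0.078, adjusted p = 0.44). Cd79a changed sign as well, from -0.55 (rho -0.21, exact p = 0.16) to 0.37 (exact p = 0.41). Rplp0, an acidic ribosomal protein, had r = -0.80 (rho -0.29, exact p = 0.060) and -0.05 (exact p = 0.92), so that relation rested on s_AO58_1. Mki67 had r = 0.76 (rho 0.62, exact p = 0.034, adjusted p = 0.27) and 0.35 (exact p = 0.43).

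How far the most variable genes run with Myc, B cell identity or other cells was counted for 10 markers, as genes with a Pearson r of at least 0.8 in size, positive or negative, with the marker. Over 8 tumours, 120 of the 1000 most variable genes did so with Myc (12%, against 15.2% of all genes), 180 with Cd79a (18% against 18.7%), 66 with Gzma (6.60% against 9.57%) and 49 of 999 with Camp (4.90% against 3.59%). For the other 6 markers the shares over 8 tumours were 7.30% against 3.26% for Siglech, 1.4% against 1.7% for Cd3e, 26% against 25.5% for C1qa, 4.5% against 3.7% for Alas2, 13.3% against 13.5% for Mki67 and 24.9% against 34.5% for Rplp0. Without s_AO58_1, 100 did so with Myc (10% against 4.23%), 21 with Cd79a (2.10% against 3.85%), 86 with Gzma (8.60% against 3.51%) and 81 of 999 with Camp (8.11% against 4.59%). The share over all genes fell without s_AO58_1 for Myc, Cd79a, Gzma, C1qa, Alas2, Mki67 and Rplp0, and rose for Camp, Siglech and Cd3e. An r of 0.8 in size is easier to reach by chance with 7 points than with 8. Shares with and without s_AO58_1 are therefore not directly comparable, and a rise can come from the smaller number of tumours alone. These counts rest on only 7 or 8 points and are a description. In the set of 7, the share was also lower among the variable genes than among all genes for Cd3e (3.10% against 4.05%) and Rplp0 (1.2% against 5.65%). It was higher for Siglech (9.30% against 6.23%), C1qa (6.30% against 5.51%), Alas2 (4.70% against 3.17%) and Mki67 (6.30% against 3.88%).

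The genes most like Myc over 8 tumours were Pmaip1, Ppl, Naip6, Abraxas2 and Pcnx (r of 0.968 to 0.976), and without s_AO58_1 they were Rilpl1, Epha2, Cdh5, Ear1 and Ptprf (r of 0.966 to 0.988). All 5 of the first set were lowest in s_AO58_1, where Ppl, a plakin, had 0.26 CPM, while Rilpl1 and Ear1 of the second were highest there. Those most like Gzma were Insl6, 5730480H06Rik, Ccdc163, mt-Tq and Hmgn1 (r of 0.937 to 0.955) and, without s_AO58_1, Mfsd4a, Zfp568, Cped1, Qser1 and Nes (r of 0.963 to 0.985). None of these is on the NK and cytotoxic list.

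Tumours with the prefix AO58 were set against those with AO57. In edgeR no gene was called with all 8 tumours, with 1471 at an unadjusted p under 0.05, and none without s_AO58_1, with 1500. DESeq2 called 179 higher and 117 lower in AO58. The genes with the smallest p, named here though not called in edgeR, were chosen for this difference, so their values are a description. Over all genes, 3.43% were higher and 3.03% lower in every AO58 tumour than in any AO57 tumour, and without s_AO58_1 5.32% were higher and 4.54% lower. Cd300c, a receptor of dendritic and myeloid cells, was at 4.18 to 5.41 CPM in AO57 and 16.7 to 44.9 CPM in AO58 (2.57 ± 0.36 log2 units, or 2.24 ± 0.27 without s_AO58_1). For Siglech the difference was 1.89 ± 0.29 log2 units, or 1.86 ± 0.25 without s_AO58_1. Cxcr6, a chemokine receptor of T and NK cells, ran the other way, with 7.72 to 18.9 CPM in AO57 and 2.82 to 4.20 CPM in AO58 (-2.07 ± 0.35, or -2.17 ± 0.34 without s_AO58_1). For these 3 genes the edgeR adjusted p was 0.27 over 8 tumours. Lrp3, Fam129c and Plaur were also higher in every AO58 tumour, and Lgalsl, Syt11, Nefh and Gzmk lower in every one. Within the 7 tumours other than s_AO58_1, Myc was higher in every AO58 tumour as well, so a difference by prefix and one by Myc level cannot be told apart there. Of the 4 instruments named in the run labels, 2 ran tumours of both prefixes. With instrument as a term over those 6 tumours edgeR called no gene for prefix, with 768 at an unadjusted p under 0.05.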

How the data were processed

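Poly-A RNA of the sorted cells was fragmented with RNase III and sequenced on the Ion Proton, per the labels' protocols. The authors deposited whole-number read counts per gene, not normalized, made with BWA 0.7.5a, Picard 1.119 and HTSeq on mm9 (NCBIM37), per the submitters' processing notes. No source used here gives the strand setting of the counting, so overlapping genes cannot be told apart. The 5 lines that name no gene (51.2 to 61.9% of all reads) stayed out of totals and tests. Of 37620 gene IDs, 32897 matched a symbol.

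Genes with at least 1 CPM in at least 2 of the 8 tumours were kept. Counts were scaled by TMM, and log2 CPM with a prior count of 2 gave SDs and correlations. A gene's length is that of its longest GENCODE vM21 transcript. The slope on log2 Myc CPM and the title prefix were tested with edgeR 4.0.16 (quasi-likelihood F test, Benjamini-Hochberg adjusted p under 0.05, two-sided), in R 4.3.3 with limma 3.58.1. DESeq2 1.42.0 was an alternative. Other scalings, filters, prior counts, module settings and leaving out each tumour were also tried. Exact permutation tests used scipy 1.17.1, with numpy 2.4.6, pandas 2.3.3 and Python 3.11.15. The fits were tested on simulated data. Of the 17 markers correlated with Myc, 1 is not reported here, and adjusted values cover all 17.

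The members, gene lists and tests were chosen with earlier results of these data known. Named genes are the fixed markers, the 15 with the largest SD (at least 5 CPM in 2 tumours), the 8 with the smallest p in each direction for Myc level and 5 for prefix, the 5 most like Myc, Gzma and Camp, the leading genes of the co-varying groups, and up to 4 of the most variable members of each list described. Further list members named beside them, such as Max, Bax, Mpo and Prss34, and the keratins were singled out after their values were seen.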

Additional observations from a re-analysis of the deposited data

Results flagged for a closer look

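In 25 of the 146 sets of 8 tumour values examined (130 genes and 16 list sums), 1 tumour lay further from its nearest neighbour, as a share of the whole range, than Dixon's 95% limit for 8 samples. Chance alone gives about 1 in 20 among sets not chosen by their values. That rate does not apply here, since many of these genes were chosen for a large SD, for a slope on Myc level, which was lowest in s_AO58_1, or as leaders of groups in which s_AO58_1 stood apart. In 24 of the 25 that tumour was s_AO58_1, the highest in 10 and the lowest in 14, and the sets are not independent, since the same 8 tumours enter each.

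Genes in which s_AO58_1 was lowest had gap shares of 0.882 for Lmbrd2, 0.882 for Pdpr, 0.880 for 9930111J21Rik1, 0.874 for Ap4e1, 0.841 for Rapgef2, 0.826 for Kcna3, 0.767 for Ptprc and 0.709 for Mga. The others at that end were Zfp568 (0.692), Qser1 (0.640), Zc3h12c (0.591), Il6ra (0.578), Pmaip1 (0.557) and Naip6 (0.546). Their transcripts run from 1902 bases in Kcna3 to 13931 in Mga.

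Genes in which s_AO58_1 was highest were Rplp0 (0.765), Uqcr11 (0.673), Tmem160 (0.631), Bax (0.616), Klrg1 (0.615), Usmg5 (0.594), mt-Tc (0.576), Elob (0.559), 5730480H06Rik (0.550) and Ccdc163 (0.527). The 1 case from another tumour was the sum of the 22 ribosome biogenesis genes, with 6109 CPM in s_AO57_1 against 3469 to 4215 CPM in the other 7 (gap share 0.656).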

How the results depend on the processing

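The count of genes with an SD of at least 1 (2481) became 5514 with no filter on low counts and 859 with variance-stabilised values, and ran from 1332 (without s_AO58_1) to 2746 when 1 tumour was left out and the genes refiltered. The first principal component held 47.7% of the variance, and 27.3% (without s_AO58_1) to 54.2% with 1 tumour left out. The 1047 genes called on Myc level became 3236 with DESeq2, 649 with no filter, 5038 with the title prefix as a term, and 0 with the rank of Myc (1968 at an unadjusted p under 0.05), linear Myc CPM (2613) or an instrument term over 6 tumours (3059). Leaving out 1 tumour gave 0 to 1365 such genes: 0 without s_AO57_1, s_AO58_1, s_AO58_2 or s_AO58_5 and 350 without s_AO58_4. For title prefix edgeR called 0 genes under each of its alternatives, and DESeq2 called 296. The title number as a replicate block (1, 2 and 4) also gave 0 calls, with 759 genes at an unadjusted p under 0.05. Deviations of same-numbered tumours correlated at -0.014, 0.11 and 0.061 over genes, and those of different numbers at -0.25 to 0.15. With so few tumours, s_AO58_1 among them, these values cannot show whether the numbers pair the tumours. The 11 groups of co-varying genes became 6 when fewer of the most variable genes were clustered. Alternatives chosen after seeing the data gave 152 Myc-level genes with the length trend removed, 197 with DESeq2 over 7 tumours, and 384 prefix genes with DESeq2 over 7 tumours. The causes of these shifts were not tested.

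Of 320 values of single genes named for Myc level, 178 kept their call, 140 lost it and 2 changed sign, both for Bax without s_AO58_1 (0.033 in edgeR and 0.048 with DESeq2, against -0.79). With 1 tumour left out the slope of Bax ran from -0.88 (without s_AO58_4) to 0.033 (without s_AO58_1). Of 169 for title prefix, 149 kept their side of the threshold and 20, all with DESeq2, passed it. Correlations of Myc with the markers reported changed sign without s_AO58_1 for Cd79a (0.37), Bcl6 (-0.11), C1qa (0.55) and Alas2 (0.025). Without both s_AO58_1 and s_AO58_2 they did so for Cd79a (0.14), Ms4a1 (-0.079), Bcl6 (-0.18), Camp (0.074), C1qa (0.78), Alas2 (0.42), Rplp0 (0.050), Odc1 (0.27) and Cdkn2a (0.040). At 1 CPM in the shallowest tumour, counting error alone has an SD of 0.25 log2 units, so spreads of that size are not detectable in genes that low.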
